A study of Mus musculus with 2 samples.

Results

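The insulin-like growth factor (IGF) genes described here are 1 ligand, Igf1, 2 receptors, Igf1r and Igf2r, and 6 binding proteins, Igfbp2, Igfbp3, Igfbp4, Igfbp5, Igfbp6 and Igfbp7. These 9 genes were taken by symbol from the 28001 features measured in regenerating mouse digit tips. The digit tips came from adult mice of 2 lines, Lmx1bCreERT2;R26-LSL-TdT and PdgfraCreERT;R26-LSL-TdT, aged 10 to 12 weeks. Both lines received 3 mg tamoxifen per day for 4 days, were amputated 10 days later, and had the tissue beyond the amputation taken 14 days after it. The first line carries a tamoxifen-inducible Cre under Lmx1b, a transcription factor gene of the dorsal limb. The second carries one under Pdgfra, a receptor gene of mesenchymal cells. In both, recombination switches on a tdTomato reporter at Rosa26, so every cell analysed came from a reporter mouse and a tamoxifen-treated one. Each line gave 1 droplet library, and the number of animals behind it is not given in the sources used here. The comparisons below therefore have no replicates, and no test was made: intervals are 95% exact intervals for counting error only, and a gene is called higher or lower past 2-fold.

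IGF1 and its relative IGF2 signal through the tyrosine kinase receptor IGF1R, while IGF2R carries IGF2 into the cell for breakdown in lysosomes. The binding proteins hold IGFs outside the cell, and proteases such as PAPP-A release them by cutting the binding protein. In bone, IGFs and IGFBP5 are stored in the matrix, and IGF1 promotes growth and bone formation. IGFBP7 binds IGFs more weakly than the other family members do and is known from the walls of blood vessels.

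The 9 genes lie on 7 chromosomes, and 2 of the binding protein genes are neighbours. On GRCm38, Igfbp2 spans chr1:72824503-72852474 on the plus strand and Igfbp5 spans chr1:72857932-72874884 on the minus strand. Their 3′ ends face each other 5457 bases apart, with 0 other counted genes between them. Igfbp3 (chr11:7206086-7213923, minus strand) and Igfbp4 (chr11:99041244-99054392, plus strand) share a chromosome but are far apart. The others are Igf1 (chr10:87858265-87937042, plus), Igf1r (chr7:67952827-68233668, plus), Igf2r (chr17:12682406-12769664, minus), Igfbp6 (chr15:102144362-102149511, plus) and Igfbp7 (chr5:77349240-77408041, minus). On the opposite strand Igf1 overlaps Igf1os, Igf2r overlaps Airn, and Igfbp7 overlaps Polr2b and Gm34648, and whether the counting used strand is not given in the sources used here.

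Igfbp2, Igfbp4 and Igfbp5 share the subtype of their highest mesenchymal level in both libraries, the Sfrp2/Cyp2f2 cells described further on, so the 250 bases before their start sites are shown. All 9 members matched an entry of the RefSeq promoter table for GRCm38.p6, at 10 start sites. The strand is that of the gene, 5′ to 3′, and capitals mark matches on either strand to the TATA-like motifs TATAAA and, less usual, TATTTAA, or to the GC box core GGGCGG. The Igfbp2 stretch is chr1:72824230-72824479 (plus strand, first of 2 start sites), the Igfbp4 stretch is chr11:99040994-99041243 (plus strand) and the Igfbp5 stretch is chr1:72874866-72875115 (minus strand).
Igfbp2: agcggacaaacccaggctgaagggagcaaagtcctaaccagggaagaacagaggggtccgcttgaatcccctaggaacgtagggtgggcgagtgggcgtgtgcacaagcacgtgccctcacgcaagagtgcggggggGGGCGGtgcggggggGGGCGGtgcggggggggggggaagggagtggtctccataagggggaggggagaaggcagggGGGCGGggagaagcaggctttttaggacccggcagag
Igfbp4: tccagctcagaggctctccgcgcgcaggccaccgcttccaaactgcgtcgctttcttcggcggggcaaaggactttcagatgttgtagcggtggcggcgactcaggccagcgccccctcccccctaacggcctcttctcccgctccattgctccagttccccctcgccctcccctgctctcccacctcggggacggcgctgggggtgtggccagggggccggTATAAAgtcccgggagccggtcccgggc
Igfbp5: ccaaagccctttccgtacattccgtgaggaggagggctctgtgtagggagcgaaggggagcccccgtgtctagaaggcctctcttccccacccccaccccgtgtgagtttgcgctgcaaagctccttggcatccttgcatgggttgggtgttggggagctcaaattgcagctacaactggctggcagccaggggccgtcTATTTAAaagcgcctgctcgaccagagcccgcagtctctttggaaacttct
The 3 stretches differed in these letters. Igfbp2 held 3 matches to GGGCGG, Igfbp4 held 1 match to TATAAA beginning 28 bases before the start, and Igfbp5 held 1 match to TATTTAA beginning 51 bases before it. Over all 32851 promoters of the same length, 32.7% held GGGCGG, 12.4% held TATAAA and 4.18% held TATTTAA. The motifs were picked after reading these sequences, and a match is a description of the letters.

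After filtering, the Lmx1b library held 2744 cells with a median of 17084 unique molecular identifiers (UMIs, counts of captured RNA molecules), and the Pdgfra library held 2309 cells with a median of 9774. Cells were grouped into classes by clustering on genes other than the 9 members and 23 further pathway genes, and each cluster was named from marker lists. Since the clusters were named from these lists, their markers are partly built in. The Pdgfra gene stood at 147 and 184 CPM (counts per 1000000 UMIs) in mesenchymal cells of the Lmx1b and Pdgfra libraries, against 4.78 and 8.84 CPM in pericytes. Pecam1 stood at 1377 and 1300.2 CPM in endothelial cells, and Csf1r at 662 and 545 CPM in macrophages. A marker gate applied to single cells gave the same class to 96.1% and 97.6% of mesenchymal and 97.4% and 95.3% of endothelial cells. It did so for 35.1% and 60.5% of cartilage cells, 18 of 36 and 39 of 101 Schwann cells and 1.96% and 5.63% of erythroid cells. The 2 libraries shared 10 cell barcodes, of which 1 was among the cells kept. Clusters left unnamed, some of which came near a list, are not used: 290 cells (10.6%) and 581 cells (25.2%), with medians of 1687.5 and 2108.0 UMIs. Not all were shallow. Among them were 97 cells led by cell cycle genes, near both pericyte and mesenchymal lists (median 32816 UMIs). Another 49 cells were led by H19, tdTomato and Ltbp2 (median 56207 UMIs). The levels below leave these cells out. Levels below are summed UMIs of a class as CPM. Detection is the share of cells with a UMI after every cell was thinned to 5000 UMIs, which leaves out shallower cells.

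Each of the 9 members had its highest level in the same class in both libraries, among the 7 classes with at least 20 cells of 5000 UMIs in each. Igfbp2, Igfbp4, Igfbp5 and Igfbp6 were highest in mesenchymal cells, Igfbp3 in endothelial cells, Igfbp7 in pericytes and smooth muscle, Igf1 in macrophages, Igf1r in Schwann cells and Igf2r in cartilage. The binding proteins differed more between classes than the receptors did. From the highest to the lowest class, Igfbp5 differed 263-fold (Lmx1b library) and 101-fold (Pdgfra library), whereas Igf2r differed 3.39-fold and 3.33-fold and Igf1r 7.36-fold and 11.5-fold.

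**Figure D1:**
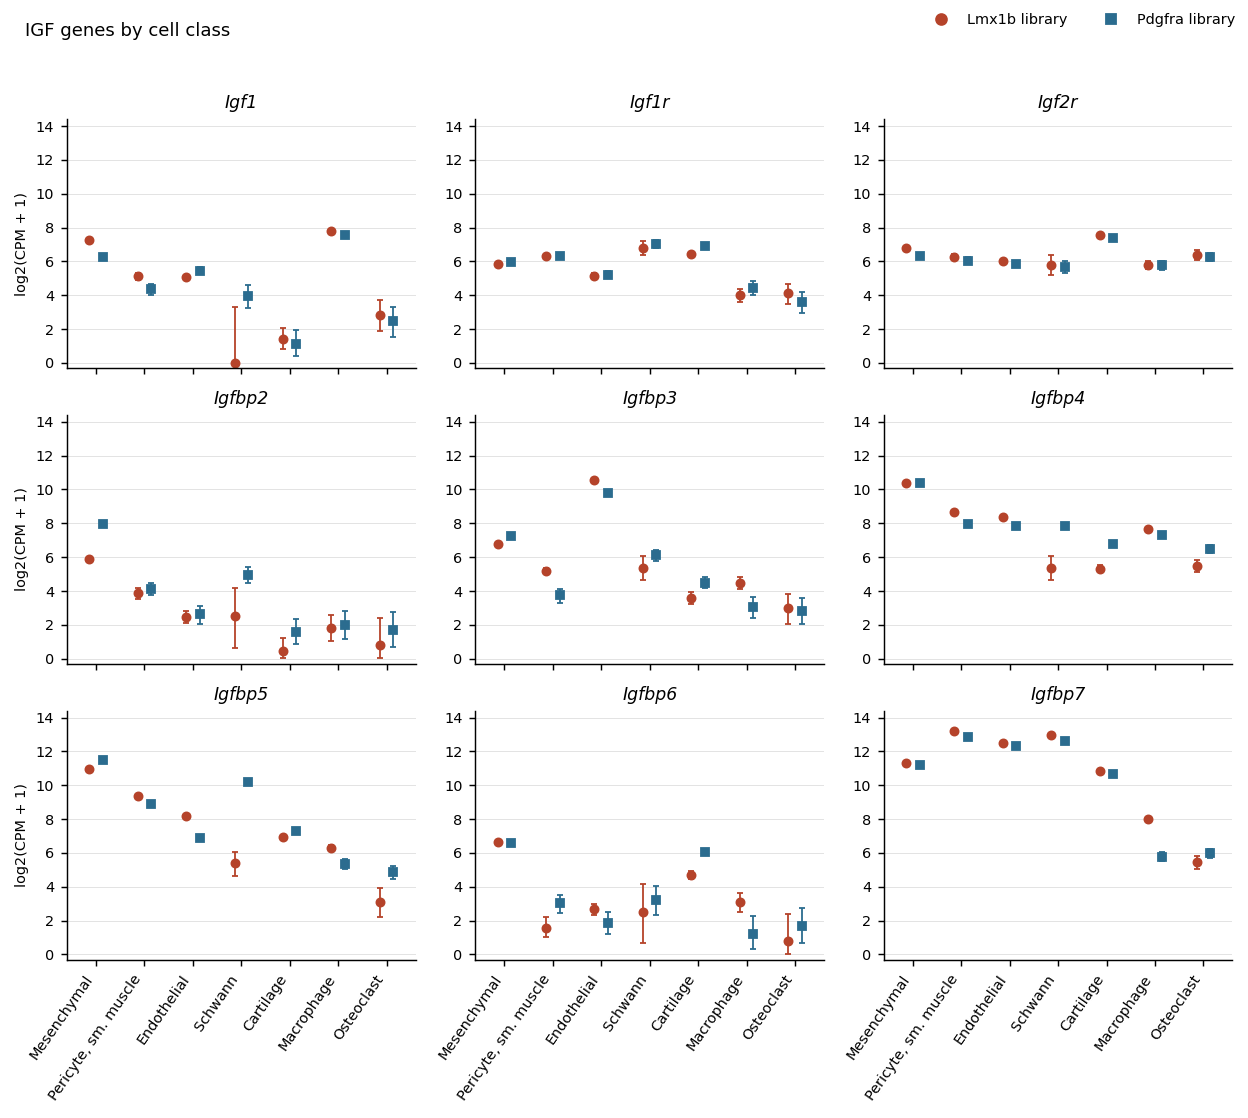
Summed level of each IGF gene as log2(CPM + 1) in 7 cell classes, with the Lmx1b library as circles left of the Pdgfra library as squares; bars are 95% exact Poisson intervals, which cover counting error only. Igfbp3 peaks in endothelial cells at 1489 and 874 CPM and Igfbp7 in pericytes and smooth muscle at 9551 and 7316 CPM, while Igf2r stays within 3.39-fold.

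The ligand Igf1 was measured mainly in macrophages and mesenchymal cells. Macrophages and monocytes held 218 CPM (202 to 235) in the Lmx1b library, against 191 CPM (173 to 209) in the Pdgfra library, and mesenchymal cells held 154 and 76.7 CPM. Thinned, Igf1 was found in 37.5% and 34.8% of macrophages, in 28.1% and 23.5% of mesenchymal cells, and in 3.45% and 2.22% of osteoclasts, which serve here as a background (median 30874.0 and 33596.5 UMIs, against 23746.5 and 19145.5 in macrophages). Cartilage held 1.65 and 1.15 CPM, the lowest of the 7 classes but for the Lmx1b library's Schwann cells. Pericytes and smooth muscle held 33.7 and 19.5 CPM and endothelial cells 32.6 and 42.7 CPM, and the counting intervals of these vascular classes overlapped in the Lmx1b library. Erythroid cells, which should lack Igf1, held 31.9 and 36.1 CPM from 3 and 10 UMIs. The class-wide vascular levels of Igf1 are therefore not read as above this erythroid level. Osteoclasts held 6.17 and 4.48 CPM. The endothelial clusters described further on differed in Igf1. The Selp cluster held 54.6 and 50.2 CPM and the Gpihbp1 cluster 26.7 and 50.7 CPM. The Sema3g cluster held 1.24 CPM (upper limit 6.92) and 0 CPM (upper limit 8.39). The Nts cluster lay between the Selp and Sema3g clusters in both libraries. In Schwann cells of the Lmx1b library 0 of 36 cells had an Igf1 UMI, which allows a level of up to 7.20 CPM at 3 UMIs (exact 95% upper limit 8.86 CPM).

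Igf1r, the signalling receptor, had UMIs in each of the 7 classes in both libraries, although after thinning 2 of 29 and 0 of 45 osteoclasts had one. Schwann cells held 110.4 CPM (80.8 to 147) in the Lmx1b library and 129 CPM (109.8 to 152) in the Pdgfra library. Cartilage followed at 85.3 and 118 CPM, and these 2 classes overlapped in their counting intervals in both libraries. Pericytes and smooth muscle held 78.9 and 77.2 CPM, mesenchymal cells 57.5 and 62.5 CPM and endothelial cells 34.2 and 36.4 CPM. Macrophages, which had the most Igf1, were low in its receptor, at 15 and 20.6 CPM, as were osteoclasts at 16.2 and 11.2 CPM. Outside the 7 classes, 22 neutrophils of the Lmx1b library, shallow cells with a median of 3084.5 UMIs, had Igf1r at 383 CPM (260.2 to 544), with a UMI in 16 cells. The Pdgfra library held 4 such cells. Igf2r, the clearance receptor, was highest in cartilage at 184 and 168 CPM and lowest in macrophages of the Lmx1b library (54.2 CPM) and Schwann cells of the Pdgfra library (50.4 CPM). In the Pdgfra library 49 of the 114 cartilage cells formed a cluster with a median of 3501 UMIs, in which Igf2r stood at 172 CPM, against 168 CPM in the other 65 cells.

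The vascular classes carried 2 of the binding proteins. Igfbp7 stood at 9551 and 7316 CPM in pericytes and smooth muscle of the Lmx1b and Pdgfra libraries, at 8035 and 6241 CPM in Schwann cells, at 5839 and 5217 CPM in endothelial cells and at 2547 and 2369.6 CPM in mesenchymal cells. Thinned, it was found in each of the pericytes and smooth muscle cells of both libraries, and in 31.7% and 24.1% of macrophages. Igfbp3, a major carrier of IGFs in blood, stood at 1489 and 874 CPM in endothelial cells against 110.5 and 151 CPM in mesenchymal cells and 35.3 and 12.4 CPM in pericytes and smooth muscle. The endothelial level exceeded the pericyte level 42.2-fold (36.6 to 48.9) in the Lmx1b library and 70.6-fold (52.1 to 98.1) in the Pdgfra library.

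Within the endothelium, Igfbp3 was low in the cluster that held Selp and high in the others. One cluster was led by Gpihbp1, Cd300lg and Plvap (309 and 152 cells in the Lmx1b and Pdgfra libraries), one by Cldn5, Gja4 and Sema3g (46 and 28 cells), one by Selp, Vwf and Sele (184 and 58 cells) and one by Nts and cell cycle genes (67 and 38 cells). Igfbp3 stood at 2191 and 1026 CPM in the Gpihbp1 cluster, at 2402 and 2029 CPM in the Sema3g cluster and at 1244 and 517 CPM in the Nts cluster, against 169.8 and 148 CPM in the Selp cluster. The Gpihbp1 cluster exceeded the Selp cluster 12.9-fold (11.8 to 14.2) in the Lmx1b library and 6.95-fold (5.88 to 8.28) in the Pdgfra library. Igfbp5 was higher in the Selp cluster, at 934 and 155 CPM, than in the Sema3g cluster, at 19.9 and 27.3 CPM. The Lmx1b value leaned on few cells, since 1 cell held 26% and 3 cells held 55.1% of all endothelial Igfbp5 UMIs in that library. The Pdgfra library's Gpihbp1 cluster held 126 CPM of Igfbp5, close to its Selp cluster. Igfbp4 was lower in the Gpihbp1 cluster, at 206 and 155 CPM, than in the Selp cluster, at 526 and 415 CPM. Of the 9 members measured between the Gpihbp1 and Selp clusters, 5 passed 2-fold in the Lmx1b library, where 6.33% of all genes did. For the Pdgfra library 3 of the 8 measured did, where 5.63% of all genes did.

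**Figure D2:**
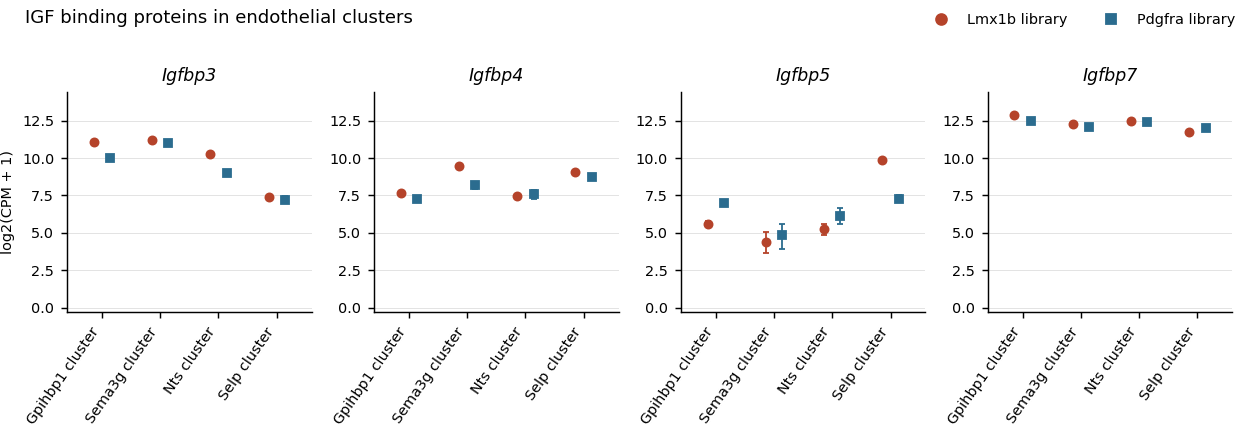
Level of 4 binding protein genes as log2(CPM + 1) in the endothelial clusters, named by a leading gene, with the Lmx1b library as circles left of the Pdgfra library as squares; bars are 95% exact Poisson intervals for counting error. Igfbp3 drops in the Selp cluster to 169.8 and 148 CPM, while Igfbp4 there stands at 526 and 415 CPM.

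Among the 7 classes, the other 4 binding proteins were highest in mesenchymal cells. Igfbp5 stood at 2031 and 2837 CPM in mesenchymal cells of the Lmx1b and Pdgfra libraries, against 646 and 471 CPM in pericytes and smooth muscle and 294 and 116 CPM in endothelial cells. Igfbp4, which PAPP-A cuts to release IGFs, stood at 1321 and 1353 CPM in mesenchymal cells, against 409 and 247 CPM in pericytes and smooth muscle. Igfbp6, which prefers IGF2 as a ligand, stood at 99.5 and 93.6 CPM in mesenchymal cells, with cartilage at 24.8 and 65.3 CPM and endothelial cells at 5.42 and 2.57 CPM. Outside the 7 classes, Lmx1b-library neutrophils held Igfbp6 at 235 CPM (141 to 367) from 19 UMIs in 6 of 22 cells, epithelial cells at 35.4 CPM and erythroid cells at 31.9 CPM. Igfbp2 stood at 59.6 and 248 CPM in mesenchymal cells, against 4.61 and 5.14 CPM in endothelial cells. The 97 epithelial cells of the Lmx1b library held Igfbp2 at 777 CPM (734 to 822), and 87.0% of the thinned epithelial cells had a UMI for it.

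Against endothelial cells, 5 members were higher and 2 were lower in mesenchymal cells of the Lmx1b library, where 30.9% of all genes passed 2-fold in one direction or the other. For the Pdgfra library 4 were higher and 2 lower, where 31.3% of all genes passed. The 4 higher in both were Igfbp2, Igfbp4, Igfbp5 and Igfbp6, and the 2 lower in both were Igfbp3 and Igfbp7. Against pericytes and smooth muscle, 6 members were higher and 1, Igfbp7, was lower in mesenchymal cells of each library, where 19.5% (Lmx1b library) and 18.6% (Pdgfra library) of all genes passed. The median difference of the 9 members was 1.65 and 2.45 on the log2 scale, against -0.17 and -0.11 over all genes. Between endothelial cells and pericytes, 8 members were high enough to compare: 1 was higher and 3 were lower on the endothelial side in the Lmx1b library, where 27.0% of all genes passed. For the Pdgfra library 2 were higher and 3 lower, where 26.6% passed. The Igfbp5 difference between endothelial cells and pericytes turned to 1.32 (Lmx1b library) and 0.22 (Pdgfra library) on the log2 scale under a stricter cell filter (1000 genes or more, mitochondrial UMIs up to 5%). Igf1 in the Pdgfra library turned to -0.88 when the Angpt2/Fmo2 cells described further on were counted as pericytes. Igf1r was among the lower in both, at 34.2 and 36.4 CPM in endothelial cells against 78.9 and 77.2 CPM in pericytes and smooth muscle.

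Some levels in other classes were set beside erythroid cells, which should lack these genes, as a rough background. Only 1.96% and 5.63% of these got the same class by the marker gate. Levels reported elsewhere lay below the erythroid ones for Igfbp7 in macrophages (255 and 54.1 CPM), Igfbp5 in pericytes (646 and 471 CPM) and Igfbp4 in cartilage (39.1 and 107 CPM). How much of those levels is background was not tested. The erythroid cells had medians of 1318 and 1380 UMIs. They held Igfbp7 at 1618 and 1946 CPM, Igfbp5 at 681 and 997 CPM and Igfbp4 at 671 and 909.9 CPM in the Lmx1b and Pdgfra libraries. They also held Igfbp2 at 213 and 173 CPM, above the mesenchymal level of the Lmx1b library (59.6 CPM), and Igfbp3 at 117 CPM (58.5 to 209.5) and 97.5 CPM (64.2 to 142), near the mesenchymal 110.5 and 151 CPM. The class-wide mesenchymal levels of both genes in the Lmx1b library are therefore not read as above this erythroid level. That level rests on few UMIs. Without the top erythroid cell of that library, Igfbp2 stood at 77.5 CPM (31.1 to 159.6) and Igfbp3 at 54.8 CPM (17.8 to 128). Deeper classes of that library differed in Igfbp2: endothelial cells held 4.61 CPM, osteoclasts 0.772 CPM and cartilage 0.367 CPM, whereas epithelial cells held 777 CPM. In T and NK cells Igfbp5 stood at 1559 and 3245 CPM, but 1 cell held 95.5% of those UMIs in the Lmx1b library and 1 cell held 96.2% in the Pdgfra library. In Schwann cells Igfbp5 stood at 40.8 and 1163 CPM, and 3 cells held 84.4% of the UMIs behind the Pdgfra value. These values are not read as expression by the class. Osteoclasts, thinned to the same depth, had an Igfbp4 UMI in 17.2% and 35.6% of cells, against 76.9% and 86.4% of mesenchymal cells.

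The mesenchymal cells, bone lineage included, fell into 8 subtypes, called here by leading genes. They numbered 958 cells (Lmx1b library) and 535 cells (Pdgfra library) in all. The subtypes came from clustering these cells again together with cartilage cells, so some cells first named cartilage are among them. The Sfrp2/Cyp2f2 cells numbered 53 and 129. The Mest/Gldn cells numbered 133 and 141, the Angptl7/Thbs4 cells 104 and 73 and the Angpt2/Fmo2 cells 142 and 28. By its markers the bone lineage held the A2m/Mmp13 cells (113 and 15), the C1qtnf3/Adamts18 cells (186 and 90), the Bglap/Ifitm5 cells with osteoblast genes (140 and 31) and the Dmp1/Phex cells with osteocyte genes (87 and 28). The mean log2 excess of the bone markers over their median across clusters was 2.99 in A2m/Mmp13 and 3.01 in C1qtnf3/Adamts18 cells. It was 5.38 in Bglap/Ifitm5 and 5.47 in Dmp1/Phex cells. No listed bone marker was a leading gene of the A2m/Mmp13 or C1qtnf3/Adamts18 cells, so their bone naming is weaker. For 8 of the 9 members the subtype with the highest level was the same in both libraries, the exception being Igf1r. This number was 3 with at least 200 genes per cell and up to 25% mitochondrial UMIs, and 4 with each library clustered alone. In the Pdgfra library the highest subtype overlapped the next in counting interval for Igf2r, Igfbp3 and Igfbp6.

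**Figure D3:**
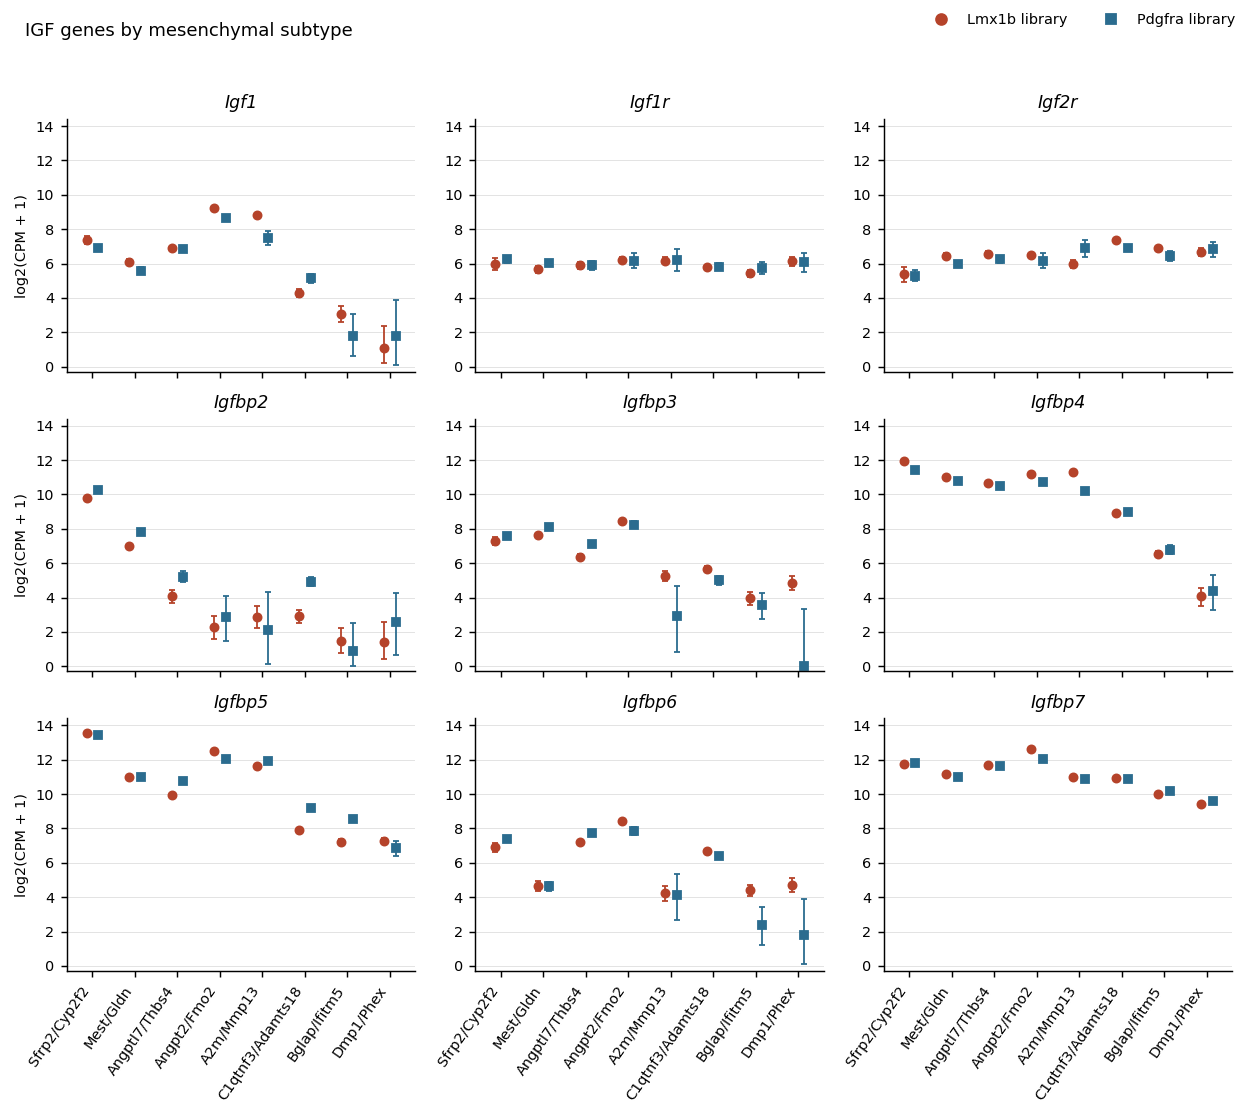
Summed level of each IGF gene as log2(CPM + 1) in 8 mesenchymal subtypes, with the Lmx1b library as circles left of the Pdgfra library as squares; bars are 95% exact Poisson intervals for counting error. Igfbp2, Igfbp4 and Igfbp5 are highest in Sfrp2/Cyp2f2 cells, Igf1, Igfbp3, Igfbp6 and Igfbp7 in Angpt2/Fmo2 cells, and Igf2r in C1qtnf3/Adamts18 cells, although in the Pdgfra library Igfbp3, Igfbp6 and Igf2r overlap the next subtype.

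The Sfrp2/Cyp2f2 cells held the highest mesenchymal levels of Igfbp2, Igfbp4 and Igfbp5. Igfbp5 stood at 12028 CPM (11818 to 12241) in the Lmx1b library, against 11027 CPM (10886 to 11169) in the Pdgfra library, 7.49-fold and 7.40-fold above the other mesenchymal cells. The median cell held 9567 and 9627 CPM, so the level was spread over the subtype. Igfbp4 stood at 3918 and 2763 CPM, 3.24-fold and 2.46-fold above the other mesenchymal cells, and at least 1 UMI was found in 53 of 53 and 128 of 129 cells. Igfbp2 stood at 874 and 1201 CPM, 35.1-fold (31.6 to 39.0) and 13.2-fold (12.3 to 14.1) above the other mesenchymal cells. It was uneven among these cells: 28 of 53 and 75 of 129 had a UMI for it, the median cell held 33.5 and 70.5 CPM, and the cell at the 90th percentile held 2609.8 and 3331 CPM. In the Lmx1b library 1 cell held 31.2% and 3 cells held 59.1% of these UMIs, and without the top cell Igfbp2 stood at 619 CPM. The top cell of the Pdgfra library held 11.2%. The Igfbp2 difference from the other mesenchymal cells depended on the cells kept: under the filter of 1000 genes and 5% mitochondrial UMIs it was 0.13 on the log2 scale in the Pdgfra library, against 3.70 as given, and no longer passed, while in the Lmx1b library it was 4.49, against 5.08. With each library clustered alone it was 2.42 in the Pdgfra library. Its neighbour on the chromosome, Igfbp5, was found in 50 of 53 and 127 of 129 of the same cells. Igf2r was lowest of the 8 subtypes here, at 40.5 and 38.2 CPM, against 112 and 86.3 CPM in the other mesenchymal cells. In all, 3 members were higher and 1 lower in the Lmx1b library, where 17.4% of all genes passed 2-fold, and 4 were higher and 1 lower in the Pdgfra library, where 15.2% passed. Igfbp6 was the additional one, at 169 CPM against 81.1 CPM in the other mesenchymal cells of the Pdgfra library. Pericyte markers summed to 419 and 235 CPM in the Sfrp2/Cyp2f2 cells, with 7 of 7 found in each library.

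The Angpt2/Fmo2 cells held the most Igf1, Igfbp3, Igfbp6 and Igfbp7 among mesenchymal subtypes. Igf1 stood at 601 CPM (574 to 629) in the Lmx1b library, against 403 CPM (355 to 455) in the Pdgfra library, 6.56-fold and 6.45-fold above the other mesenchymal cells and above the macrophage level in both. A single cell of the 28 in the Pdgfra library held 38.6% of these Igf1 UMIs, whereas in the Lmx1b library the highest of 142 cells held 4.38%. Without the top cell Igf1 stood at 580.0 and 259 CPM. Under the same stricter filter, the Igf1 difference from the other mesenchymal cells was 0.45 on the log2 scale in the Lmx1b library, against 2.70 as given, and no longer passed. The Pdgfra library gave 1.41 with that filter, 1.23 with at least 200 genes and 1.43 with each library clustered alone, against 2.67. Igfbp3 stood at 357 and 303 CPM, Igfbp6 at 344 and 229.8 CPM and Igfbp7 at 6392 and 4250.1 CPM. The stricter filter also took the Igfbp3 difference in the Lmx1b library to 0.88, against 2.22. In the Pdgfra library 1 of the 28 cells held 42.9% of the Igfbp3 UMIs and 1 held 33.1% of the Igfbp6 UMIs. Without the top cell Igfbp3 stood at 181 CPM (149 to 219), below the 277 CPM of Mest/Gldn cells, and Igfbp6 at 159 CPM (129 to 194), below the 213 CPM of Angptl7/Thbs4 cells, so in that library the highest subtype of both rests on 1 cell. Igfbp6 was concentrated, with a UMI in 45 of 142 and 6 of 28 cells. Igfbp5 was also high, at 5832 and 4280.2 CPM, while Igfbp2 was nearly absent, at 3.85 and 6.34 CPM. Against the other mesenchymal cells, 5 members were higher and 1 lower in the Lmx1b library, where 11.9% of all genes passed, and 3 were higher and 1 lower in the Pdgfra library, where 12.3% passed. These cells also carried pericyte markers, 7 of 7 found and summing to 2346 and 3570.3 CPM. Rgs5 stood at 1206 and 1632 CPM in them, against 15209.7 and 13009.5 CPM in pericytes and smooth muscle, and the Pdgfra gene at 142 and 116 CPM, against 4.78 and 8.84 CPM. Counted with the pericytes, they turned the mesenchymal over pericyte difference of Igf1 to -1.38 and -0.34 on the log2 scale in the Lmx1b and Pdgfra libraries, and in the Lmx1b library those of Igfbp3 to -1.0, Igfbp5 to -0.76 and Igfbp6 to -0.94 and that of Igfbp4 to 0.09, against 1.69. For the Pdgfra library Igf1 alone turned, and Igfbp3 (1.30), Igfbp4 (1.49), Igfbp5 (1.38) and Igfbp6 (1.04) stayed past 2-fold. The mesenchymal excess over pericytes thus depends on the class these cells are given for Igf1 in both libraries and for Igfbp3, Igfbp4, Igfbp5 and Igfbp6 in the Lmx1b library.

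The A2m/Mmp13 cells held Igf1 at 451 and 178 CPM, next after the Angpt2/Fmo2 cells in both libraries, with 15 cells behind the Pdgfra value. Igfbp5 stood there at 3224 and 3859.8 CPM and Igfbp4 at 2546 and 1188 CPM, while Igfbp3 was low at 37.4 and 6.71 CPM. The Mest/Gldn cells held Igfbp3 at 202 and 277 CPM, 2.15-fold (1.98 to 2.34) and 2.83-fold (2.60 to 3.08) above the other mesenchymal cells. They were low in Igfbp6, at 24.0 and 23.6 CPM against 113 and 123 CPM in the others. In the Pdgfra library the Mest/Gldn cells also held mast cell markers, 5 of 5 found and summing to 231 CPM, against 2 of 5 and 0.783 CPM in the Lmx1b library, and their part in these values was not tested. The Angptl7/Thbs4 cells held Igfbp6 at 147 and 213 CPM and had a UMI for it in 36.3% and 44.4% of thinned cells, against 22.9% and 45.3% of thinned Sfrp2/Cyp2f2 cells.

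In the Bglap/Ifitm5 and Dmp1/Phex cells of the bone lineage, Igf1 and the binding proteins were low, unlike in the A2m/Mmp13 cells. Of the 9 members, 7 were lower in Bglap/Ifitm5 cells than in the other mesenchymal cells and 0 were higher, in both libraries, where 20.8% (Lmx1b library) and 22.8% (Pdgfra library) of all genes passed 2-fold. The same count, 7 lower and 0 higher, held for Dmp1/Phex cells, where 29.6% and 38.7% passed. These were Igf1 and all 6 binding proteins in each case. Igfbp4 stood at 92.6 and 109.8 CPM in Bglap/Ifitm5 cells and at 15.9 and 19.8 CPM in Dmp1/Phex cells, and Igf1 at 7.48 and 2.49 CPM and at 1.13 and 2.47 CPM. In Bglap/Ifitm5 cells 1 cell held 79.3% of the Lmx1b library's Igf1 UMIs (23 of 29). The Dmp1/Phex cells also held cartilage markers, 5 of 6 found with Matn1 at 0, summing to 6189 and 2665 CPM, and their part in these values was not tested. The receptors did not pass: Igf1r stood at 42.0 and 53.2 CPM in Bglap/Ifitm5 cells and at 69.1 and 66.8 CPM in Dmp1/Phex cells. The C1qtnf3/Adamts18 cells held the most Igf2r, at 167 and 119.7 CPM, and 5 members were lower and 0 higher there in each library, where 10.1% and 10.4% of all genes passed. Igf1r had a narrow range across all 8 subtypes, 1.74-fold in the Lmx1b library and 1.40-fold in the Pdgfra library, and neighbours in its order overlapped in their counting intervals throughout.

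Several binding proteins were found together in single cells. After thinning, the median Sfrp2/Cyp2f2 cell held 4 of the 6 binding proteins in both libraries, and 60.4% and 75.5% of these cells held at least 4. Among Angpt2/Fmo2 cells 53.6% and 37.5% held at least 4, and among Bglap/Ifitm5 cells 0% and 0% did. Igf1 and Igf1r were found in the same cell in 25.7% and 8.33% of Angpt2/Fmo2 cells, and in 4.17% and 2.68% of macrophages.

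Between the libraries, mesenchymal cells differed past 2-fold in 1 of the 9 members, where 1.90% of all genes did. Igfbp2 stood at 59.6 CPM in the Lmx1b library, against 248 CPM in the Pdgfra library, a ratio of 0.240 (0.226 to 0.255). Igf1 stood at 154 and 76.7 CPM, a ratio of 2.01 (1.88 to 2.15) that fell just short of the call once 1 CPM was added to both levels. The libraries also differed in their mix of subtypes: 5.53% of the mesenchyme in the Lmx1b library, against 24.1% in the Pdgfra library, were Sfrp2/Cyp2f2 cells. With both libraries weighted to the same mix, Igfbp2 differed by -0.53 and Igf1 by 0.66 on the log2 scale, against -2.04 and 1.00 as measured, and 0 of the 9 members passed. Within Sfrp2/Cyp2f2 cells 0 of the 9 members passed, where 5.20% of all genes did, and Igfbp2 stood at 874 and 1201 CPM in the Lmx1b and Pdgfra libraries. Within Angpt2/Fmo2 cells 0 of the 8 members high enough to compare passed, where 9.17% of all genes did. Within Mest/Gldn cells none of the 9 members passed either, and Igfbp2 stood at 126 and 220.4 CPM. The median difference of the members there was 0.02 on the log2 scale, against 0.01 over all genes. In the other subtypes 1 to 3 members passed. Within Angptl7/Thbs4 cells it was Igfbp2, at 15.8 and 36.0 CPM, where 2.67% of all genes passed, and within C1qtnf3/Adamts18 cells Igfbp2 and Igfbp5 (240.3 and 572 CPM), where 1.45% did. This Igfbp2 call rests on 1 Pdgfra-library cell with 86 UMIs: all cells held 6.45 CPM in the Lmx1b library, against 29.3 CPM in the Pdgfra library, and without that cell the Pdgfra value was 6.07 CPM. The Igfbp5 difference in these cells was short of 2-fold by the mean CPM of cells (308 and 447 CPM) and thinned (264.3 and 434.6 CPM). Thinned, Igfbp5 was found in 42.9% (Lmx1b library) and 42.0% (Pdgfra library) of them. Within A2m/Mmp13 cells Igf1 (451 and 178 CPM), Igfbp3 and Igfbp4 passed, where 18.7% of all genes did, with 15 cells in the Pdgfra library. Within Bglap/Ifitm5 cells Igf1, Igfbp5 and Igfbp6 passed, where 3.59% did, and within Dmp1/Phex cells Igfbp3 and Igfbp6, where 15.2% did. Few UMIs stood behind the Pdgfra side of these last calls: 2 of Igfbp3 in A2m/Mmp13 cells, 3 of Igf1 and 5 of Igfbp6 in Bglap/Ifitm5 cells, and 0 of Igfbp3 and 1 of Igfbp6 in Dmp1/Phex cells. On the Lmx1b side of the Igf1 call in Bglap/Ifitm5 cells, the 1 cell named above held most of the UMIs. In the Bglap/Ifitm5 cells the Igfbp5 call, 149.9 CPM (Lmx1b library) against 375 CPM (Pdgfra library), rests on 1 of 31 Pdgfra-library cells with 301 of 451 UMIs, and without it the Pdgfra value was 130.2 CPM. The line, the library and the animals behind it cannot be told apart, as there is 1 library per line.

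**Figure D4:**
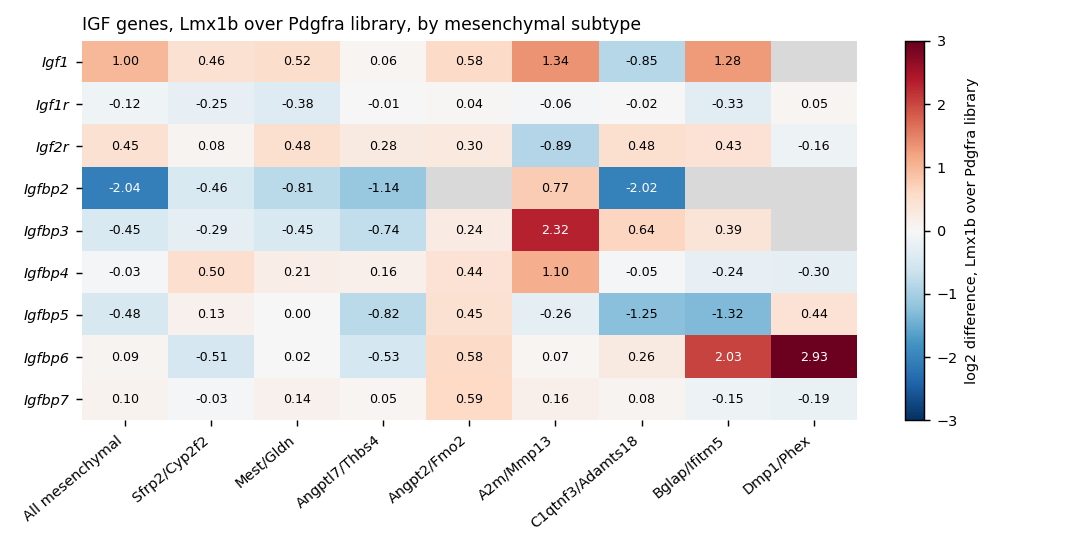
Log2 difference of each IGF gene, Lmx1b over Pdgfra library, over all mesenchymal cells (first column) and within each subtype; red is higher and blue lower in the Lmx1b library, and grey marks genes under 5 CPM over both sides together or with 0 UMIs in a library. Igfbp2 is at -2.04 over all mesenchymal cells and at -0.46 within Sfrp2/Cyp2f2 cells.

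Outside the mesenchyme, Igfbp5 stood at 294 and 116 CPM in endothelial cells of the Lmx1b and Pdgfra libraries, the one member past 2-fold there, where 1.01% of all genes passed, and the few high cells named above stand behind the first value. In pericytes and smooth muscle Igfbp3 was the one member past it, at 35.3 and 12.4 CPM, where 3.77% of all genes passed. The 61 cells of a cluster led by Mstn came from the Lmx1b library alone and held Igfbp3 at 49.4 CPM, and 3 cells held 42.2% of that library's pericyte Igfbp3 UMIs. In the 3 clusters that both libraries share, Lmx1b-library cells held 28.2, 43.3 and 116 CPM, against 11.7, 10.9 and 30.4 CPM in the same clusters of the Pdgfra library, the last pair from 13 and 5 UMIs. In macrophages Igfbp3 and Igfbp7 passed, where 4.33% of all genes did. Igfbp7 stood there at 255 and 54.1 CPM, and 1 cell held 52.0% of the Lmx1b UMIs. Igfbp3 stood there at 21.3 and 7.30 CPM, and 1 cell held 33.8% of the Lmx1b UMIs. Without that cell the Lmx1b value of Igfbp3 had an interval of 10.5 to 19.2 CPM and fell short of the call. In cartilage Igfbp4 (39.1 and 107 CPM) and Igfbp6 (24.8 and 65.3 CPM) were lower in the Lmx1b library, where 3.55% of all genes passed. In Schwann cells, 36 and 101 of them, 4 members were lower in the Lmx1b library, where 13.7% of all genes passed. These were Igf1 (0 and 14.3 CPM), Igfbp2 (4.8 and 30.2 CPM), Igfbp4 (40.8 and 229 CPM) and Igfbp5. Few UMIs stood behind the Lmx1b-library values of Igf1 and Igfbp2. The Pdgfra-library value of Igfbp5 is the one set aside above because few cells held it.

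The tdTomato reporter marks cells in which Cre has acted, and their descendants, and a cell with at least 1600 CPM of tdTomato was counted as labelled. In the Lmx1b library 66 of 958 mesenchymal cells (6.89%) were labelled, among them 34 of 53 Sfrp2/Cyp2f2 cells and 22 of 133 Mest/Gldn cells. Of the Pdgfra library's 535, 462 (86.4%) were labelled. Labelled Lmx1b-library cells held Igfbp2 at 613 CPM, against 25.1 CPM in the unlabelled ones, a difference of 24.4-fold (22.0 to 27.1). They held Igfbp5 at 6545 CPM against 1749.9 CPM, and Igfbp4 at 2638 CPM against 1239 CPM in unlabelled cells. Igfbp6 was lower in labelled cells, at 46.3 CPM against 103 CPM in unlabelled cells. This difference, -1.13 on the log2 scale, fell short of the call by the mean CPM of cells (-0.44). It also fell short with the Angpt2/Fmo2 cells counted as pericytes (-0.52). As measured, 3 members were higher and 1 lower, where 8.27% of all genes passed.

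Most of these differences narrowed within a subtype. Within the Sfrp2/Cyp2f2 cells of the Lmx1b library, the 34 labelled cells held Igfbp2 at 1109 CPM and the 19 unlabelled ones at 508 CPM, 2.18-fold (1.87 to 2.56), while Igfbp5 differed 1.14-fold. Without the 1 labelled cell that held 283 Igfbp2 UMIs, the labelled cells stood at 694 CPM and the difference was 1.37-fold (1.15 to 1.62), short of the call. With it, Igfbp2 was the one member past 2-fold there, where 13.6% of all genes passed. Among Mest/Gldn cells the 22 labelled ones held Igfbp2 at 338 CPM and the 111 unlabelled ones at 84.9 CPM, again the one member, where 7.01% of all genes passed. Without the top cell, a labelled one with 98 UMIs, this difference was 2.25-fold (1.79 to 2.82), against 3.98-fold with it. Over all mesenchymal cells of the Lmx1b library the difference was 17.2-fold (15.3 to 19.2) without the top cell. Weighted to the same mix of subtypes on both sides, Igfbp2 differed by 1.28 on the log2 scale, against 4.55 as measured, and Igfbp5 by 0.22, against 1.90.

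Among Pdgfra-library mesenchymal cells 4 members were higher in labelled cells and 0 lower, where 11.9% of all genes passed. Labelled cells held Igfbp5 at 3142 CPM, against 595 CPM in unlabelled cells. Igfbp2 stood at 275 CPM against 54.0 CPM, Igfbp4 at 1481 CPM against 411 CPM and Igf1 at 83.7 CPM against 25.6 CPM, labelled against unlabelled. Much of the unlabelled Igfbp2 level rests on 1 C1qtnf3/Adamts18 cell with 86 UMIs, so the size of this difference is not firm. Over the alternatives it ran from -3.44 (same mix of subtypes) to 4.47 (each library clustered alone) on the log2 scale, against 2.33 as measured. The Igf1 difference ran from 0.46 (same mix) to 6.85 (1000 genes and 5% mitochondrial UMIs), against 1.67. It fell short of the call at 800 and 3200 CPM tdTomato (0.59 and 0.97). Igfbp4 was 0.65 at 3200 CPM tdTomato and 0.35 with the same mix, against 1.85. Igfbp5 was 0.46 with the same mix, against 2.40. Labelled cells had a median of 25688.5 UMIs and unlabelled cells 17381.0. Of the 73 unlabelled cells, most were C1qtnf3/Adamts18, Bglap/Ifitm5 or Dmp1/Phex cells, subtypes low in these members, since 74 of 90, 16 of 31 and 7 of 28 cells of these were labelled. Within the C1qtnf3/Adamts18 cells labelled cells held Igfbp2 at 7.47 CPM and unlabelled ones at 116 CPM, where 1 unlabelled cell held 86 UMIs, 79.6% of all Igfbp2 UMIs of that subtype. Without that cell the unlabelled ones held 0 UMIs. There 0 members were higher and 2 lower, where 7.90% of all genes passed.

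**Figure D5:**
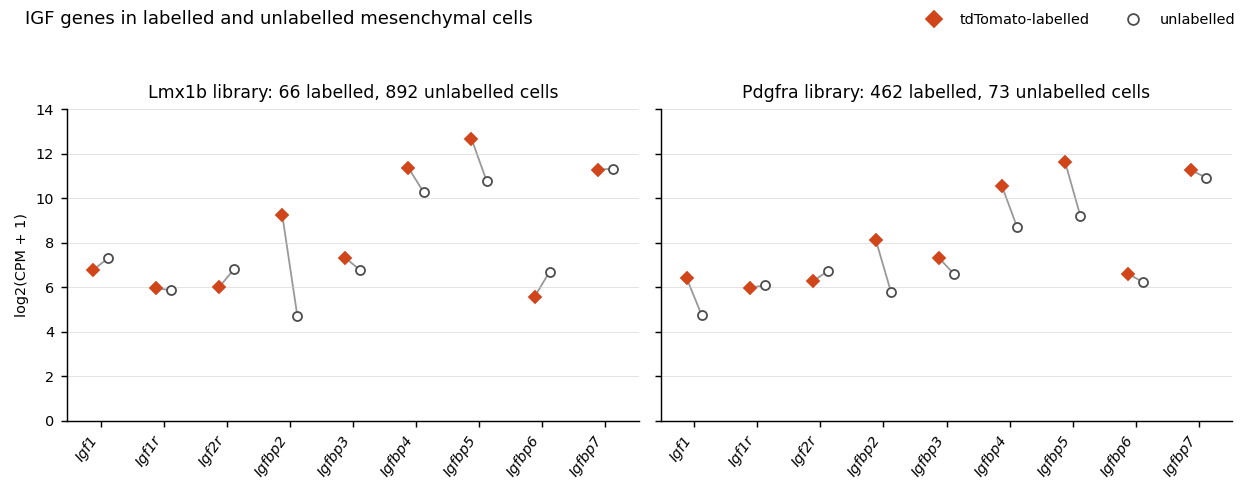
Level of each IGF gene as log2(CPM + 1) in tdTomato-labelled mesenchymal cells (diamonds) and unlabelled ones (open circles), in the Lmx1b library on the left and the Pdgfra library on the right. Igfbp2 shows the widest gap in the Lmx1b library, 613 against 25.1 CPM, and Igfbp5 in the Pdgfra library, 3142 against 595 CPM. The unlabelled Igfbp2 value of the Pdgfra library leans on 1 cell with 86 UMIs.

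The other 23 genes of the pathway were set beside the members. Igf2, the second ligand, was highest in Sfrp2/Cyp2f2 cells, at 247 and 363 CPM in the Lmx1b and Pdgfra libraries, 10.4-fold and 14.1-fold above the other mesenchymal cells. Pappa2, a protease that cuts IGFBP3 and IGFBP5, stood at 227 and 270.3 CPM in the same cells, and Htra1, a secreted serine protease, at 1185 and 942 CPM. Pappa, the protease of IGFBP4, was spread over subtypes, with 190.0 and 101 CPM in A2m/Mmp13 cells and 104 and 241 CPM in Angpt2/Fmo2 cells. Stc1, whose product inhibits PAPP-A, stood at 121 and 93.6 CPM in endothelial cells, against 8.43 and 3.07 CPM in mesenchymal cells. Insr, the insulin receptor, was likewise an endothelial gene here, at 94.8 and 84.7 CPM against 14.3 and 15.2 CPM in mesenchymal cells. Igfbp1 was at 0 in mesenchymal cells of both libraries. Between labelled and unlabelled mesenchymal cells of the Lmx1b library, Igf2 stood at 141 against 26.1 CPM and Pappa2 at 108 against 7.87 CPM. Of the 23 genes, 16 were high enough to compare between mesenchymal and endothelial cells: 9 were higher and 3 lower in mesenchymal cells of the Lmx1b library, and 8 higher and 3 lower in those of the Pdgfra library, where 30.9% (Lmx1b library) and 31.3% (Pdgfra library) of all genes passed. Between Sfrp2/Cyp2f2 and other mesenchymal cells, 3 of 17 were higher and 2 lower in the Lmx1b library, and 4 of 15 were higher and 2 lower in the Pdgfra library, where 17.4% (Lmx1b library) and 15.2% (Pdgfra library) of all genes passed.

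For each member the genes of most like pattern were ranked over 15 class and subtype profiles by the lower of the 2 libraries' Pearson r of log2(CPM + 1), over 6876 genes. The profiles come from the same libraries and cells, so these values are a description. Igfbp5 was followed most closely by Rspo3 (r = 0.91, Lmx1b library, and 0.97, Pdgfra library), Msx1 (0.91 and 0.90) and Serping1 (0.88 and 0.92). Igfbp4 had Gas6 (0.93 and 0.93), Fam69b and Cacna1g, and Gas6 was also among the 3 for Igf1 (0.83 and 0.83), after Dtnbp1 and Mgst1. Igfbp3 had the endothelial genes Ly6c1 (0.92 and 0.87), Ly6a and Clec14a. Igfbp7 had Tgfb1i1 (0.94 and 0.96, from 1 of the rows of that symbol), Clstn1 and Lama4, and Igfbp6 had Ltbp2 (0.84 and 0.84), Ssc5d and Fbln1. Igfbp2 had C130021I20Rik (0.84 and 0.82), Tmem132c and Steap2. Igf1r had Klf9 (0.88 and 0.88), Plekha5 and Farp1, and Igf2r had Ier3ip1 (0.81 and 0.86), H13 and Ckap4.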

How the data were processed

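The authors deposited unnormalized UMI counts for each feature and barcode. The file headers name Cell Ranger 4.0.0, and the labels' protocols name mm10 with a tdTomato sequence as the reference; they describe no cell sort. Kept were barcodes that reached 500 genes with no more than 10% of UMIs mitochondrial, and Scrublet's highest-scoring 0.8% per 1000 barcodes were removed (49 and 65 passing barcodes in the Lmx1b and Pdgfra libraries), its own threshold having marked 0. Of 5991 barcodes with 66867027 UMIs, 2744 cells remained in the Lmx1b library, and of 5032 with 49084751 UMIs, 2309 in the Pdgfra library. The libraries were clustered together (scanpy 1.11.5, 2000 variable genes, 30 components, 15 neighbours, Leiden resolution 1.0, giving 28 clusters) without the 9 members, 23 pathway genes, tdTomato, Xist and Y-linked genes. The cartilage, mesenchymal and bone lineage clusters were clustered again together at resolution 0.6 and named anew. Before this step the cartilage clusters held 366 and 49 cells over both libraries. After it, 131 cells (Lmx1b library) and 114 cells (Pdgfra library) were cartilage, so some cells first named cartilage entered mesenchymal subtypes. Clusters were named from 18 marker lists, in which a cluster needed at least 3 markers. The markers Cnmd, Trac, Trbc2 and Ighm were not used.

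Counts were summed per class and library and divided by that sum's total. Ratios carry exact Poisson intervals and shares exact binomial ones. A call needed 2-fold after adding 1 CPM, with at least 5 CPM over both sides. With 1 library per line, no test was possible, and UMIs of cells of 1 library are not replicates. The code was tested on simulated counts. All members were named, and like genes were ranked among genes of at least 50 CPM in a profile of at least 20 cells. Members, lists, subtypes and the tdTomato threshold were chosen with earlier results of these data known.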

Additional observations from a re-analysis of the deposited data

Results flagged for a closer look

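In 7 cases the difference of a member had opposite signs in the libraries under the same contrast, on the log2 scale. None of these differences was tested. In labelled over unlabelled mesenchymal cells, Igf1 stood at -0.54 in the Lmx1b library, against 1.67 in the Pdgfra library, and Igfbp6 at -1.13 and 0.39. The Igf1 value of the Pdgfra library was 0.59 at 800 CPM tdTomato. The Igfbp6 value of the Lmx1b library was -0.44 by the mean CPM of cells. In Mest/Gldn over other mesenchymal cells, Igfbp2 stood at 1.37 and -0.24. In Angptl7/Thbs4 over other mesenchymal cells, Igf1 stood at -0.44 and 0.67. In A2m/Mmp13 over other mesenchymal cells, with 15 such cells in the Pdgfra library, Igf2r stood at -0.85 and 0.57 and Igfbp4 at 1.10 and -0.19. In the Sema3g over the Selp endothelial cluster, with 46 and 28 cells in the Sema3g cluster, Igfbp4 stood at 0.43 and -0.53.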

How the results depend on the processing

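Of 117 member differences over 13 comparisons, 64 passed 2-fold. By comparison, 1.90% to 31.3% of all genes passed. The comparisons share cells, so this count serves only as the base for what follows. Over the alternatives the 64 differences gave 847 values, of which 11 changed sign and 130 moved by over 1.5 times. No paired analysis was possible because each line has 1 library. The cause of the shifts below was not tested, except where the alternative's own make-up shows it.

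For Lmx1b over Pdgfra mesenchymal cells, 1 member passed. It was 2 with at least 200 genes per cell and up to 25% mitochondrial UMIs, with clusters made with the members, at Leiden resolution 0.5 or 2.0, with each library clustered alone, by a marker gate per cell, by the mean CPM of cells, thinned to 5000 UMIs, with a size factor and at 1.5-fold. It was 0 with at least 1000 genes per cell and up to 5% mitochondrial UMIs, which left 466 and 97 mesenchymal cells, and with the same mix of subtypes. All genes passing numbered 187, against 341 thinned, 329 with no minimum CPM, 69 with a pseudocount of 10 CPM, 556 at 1.5-fold and 79 with the same mix. Labelled over unlabelled cells gave 1 in place of 4 with the same mix in each library, and 2 at 3200 CPM tdTomato in the Pdgfra library. The Pdgfra mix rests on 2 subtypes, and Igfbp2 turned to -3.44 there, through the 1 cell named above. Endothelial over pericyte in the Pdgfra library gave 3 in place of 5 with 1000 genes and 2 with a pseudocount of 10 CPM, and Sfrp2/Cyp2f2 over other mesenchymal cells 3 in place of 5 with either. Angpt2/Fmo2 over other cells in the Pdgfra library gave 2 in place of 4 with 200 genes or each library alone.

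With Angpt2/Fmo2 cells counted as pericytes, mesenchymal over pericyte in the Lmx1b library gave 3 in place of 7, with Igf1 at -1.38, Igfbp3 at -1.0, Igfbp5 at -0.76 and Igfbp6 at -0.94. In the Pdgfra library Igf1 turned to -0.34, and endothelial over pericyte Igf1 to -0.88. This alternative, the same mix of subtypes and the values without a top cell were chosen after seeing the data. Named anew, 95 of these 170 cells became pericytes at resolution 2.0 and 101 with each library alone. With 1000 genes, Igfbp5 in endothelial over pericyte turned to 1.32 (Lmx1b library) and 0.22 (Pdgfra library), and in the second Igfbp6 turned to -0.35 in Sfrp2/Cyp2f2 cells and Igfbp3 to -1.40 in Angpt2/Fmo2 cells. Members with the same highest class in both libraries numbered 9, with 6 to 9 over the alternatives. Those with the same highest subtype numbered 8, against 3 with 200 genes and 4 with each library alone. Where cells were clustered again, each cluster took the class or subtype that most of its cells had in the main clustering. These numbers are therefore partly tied to the main naming. The A2m/Mmp13 and Angpt2/Fmo2 values of the Pdgfra library rest on 15 and 28 cells, and erythroid cells had medians of 1318 and 1380 UMIs.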
